A study of Mus musculus with 32 samples.

Results

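The genes described here are 29 genes of cholesterol and fatty acid metabolism in mouse B cells, B cell lymphoma lines and lymphoma cells given the BTK inhibitor PCI-32765 (ibrutinib). They were chosen by gene symbol from the names on a 2-colour expression array, not by their values. They are 29 of the 35019 named genes of the array, and for the 10 of them with more than 1 probe the brightest probe was used. They were grouped by role into 7 enzymes that build isoprenoid precursors from acetyl-CoA through mevalonate, 11 enzymes that turn those precursors into squalene and then cholesterol, 5 regulators and transport proteins, 4 genes of fatty acid synthesis and 2 cholesterol exporters.

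Cholesterol synthesis is controlled by feedback. The SREBP transcription factors, made by Srebf1 and Srebf2, are held in the endoplasmic reticulum together with the escort protein SCAP, and sterols keep SCAP bound to INSIG proteins. When membrane sterol is low, SCAP carries SREBP to the Golgi, where proteases free the part that enters the nucleus and switches on genes of synthesis and uptake. Excess sterol, in the form of oxysterols, acts through a separate family of receptors, the LXRs, that switch on the exporters ABCA1 and ABCG1. Lymphocytes that leave rest and prepare to divide need sterol and fatty acid for new membrane, and both routes are known to respond to activation.

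All samples were spleen B cells or lines from spleen. The 9 lymphoma lines carried the genotype ATMKO.CD3epsilonKO, that is, loss of the DNA damage kinase ATM together with a deletion of CD3 epsilon, and 3 of the lines were hybridised on 2 arrays each. Splenic B cells came from ATMWT.CD3epsilonKO and ATMKO.CD3epsilonKO mice and were untreated or stimulated in culture through the B cell receptor with goat antibody to mouse IgM at 15 ug/ml. ATMKO cells were stimulated for 3, 6 and 24 h and ATMWT cells for 6 h, with 1 sample for each genotype and time. The protocol of the 6 h samples also lists a treatment time of 3 hours, and their titles and the protocol's own description give 6 h, which was used here. GC B cells (germinal centre B cells) were isolated from ATMWT mice immunised with sheep red blood cells, with no CD3 epsilon deletion named, and are 1 biological sample on 3 arrays. On these 24 arrays each sample (Cy5) was hybridised against 1 RNA pool (Cy3) of splenic B cells, tumours and GC B cells. On 8 further arrays, ATMKO.CD3epsilonKO lymphoma lines 178119 and 28545 given PCI-32765 at 100 nM for 1, 3, 6 or 24 h (Cy5) were compared directly with the same line given DMSO for the same time (Cy3). Dyes were not swapped. Each value below is a log2 ratio to the pool or to DMSO, so that 1 unit is a doubling. Nothing in the labels ties samples to separate animals, and p-values measure the spread between these samples only.

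Between 21.9% and 85.5% of the spots of an array were well above background in the sample channel. The B cell marker list was above background for 10 of 10 genes in every group. Atm was at -1.54 to -0.51 in the lymphoma lines, at -0.98 to -0.34 in ATMKO splenic B cells and at 0.42 and 0.63 in ATMWT splenic B cells. Cd3e was above background on all arrays, also in groups labelled with its deletion, and whether its probe lies in the deleted part is not known. The first GC B cell array correlated with its 2 repeats at r = 0.064 and 0.066 across genes, where the repeats gave 0.958, and the repeats of line 1039 gave 0.3001. The first array of untreated ATMKO B cells correlated with its 2 repeats at r = 0.638 and 0.639, where the repeats gave 0.934. It lies on slide 3 and its repeats on slide 4, where the median member difference of the lines from untreated cells was 1.46 and 1.86. Pairs of pool arrays of different samples ranged from r = -0.46 to 0.908. The labels state the dyes, and the direction of all arrays was kept. Comparisons with GC B cells are given with and without their first array, and the test among lines with and without line 1039.

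Promoter sequence was examined because many of the genes moved together. RefSeq promoters (GRCm38.p6, the 250 bases before the start site, both strands searched) were found for 22 of the 29 genes. The NF-Y box CCAAT, bound by a factor that works beside SREBP on many of its targets, was present in 18 of these 22 genes and in 33.8% of all 32851 promoters in the table. The E-box CACGTG, a sequence that SREBP and other helix-loop-helix proteins can bind, was present in 6 of 22 genes and in 6.02% of all promoters. One strict form of the sterol response element, TCACNCCAC, was present in Hmgcs1 alone among the members and in 1.05% of all promoters. Counted by promoter rather than by gene, the shares among the 28 member promoters were 67.9%, 21.4% and 3.57%. A match describes these letters only, and a window without a match says nothing about binding of the factor. The 160 bases before the start are shown for 5 synthesis genes with large differences below and, for contrast, for the exporter Abca1. Capitals mark the sterol response element (TCACCCCAC, in Hmgcs1), the NF-Y box on either strand (CCAAT or ATTGG) and the E-box (CACGTG, in Abca1). On GRCm38.p6 they lie at chr13:119690191-119690350 (plus strand), chr13:8885446-8885605 (plus), chr10:76531445-76531604 (plus), chr5:4104698-4104857 (minus), chr8:64733579-64733738 (minus) and chr4:53159896-53160055 (minus), each written 5′ to 3′ on the strand of its gene.
Hmgcs1: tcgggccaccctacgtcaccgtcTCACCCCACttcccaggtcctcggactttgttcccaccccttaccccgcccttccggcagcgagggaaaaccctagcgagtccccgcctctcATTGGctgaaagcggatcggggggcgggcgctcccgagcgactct
Idi1: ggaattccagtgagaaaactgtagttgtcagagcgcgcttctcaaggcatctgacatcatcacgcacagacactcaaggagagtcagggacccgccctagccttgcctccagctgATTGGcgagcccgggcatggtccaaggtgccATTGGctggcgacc
Lss: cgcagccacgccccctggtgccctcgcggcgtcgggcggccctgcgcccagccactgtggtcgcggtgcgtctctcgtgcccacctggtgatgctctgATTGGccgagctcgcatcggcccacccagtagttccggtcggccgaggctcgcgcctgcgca
Cyp51: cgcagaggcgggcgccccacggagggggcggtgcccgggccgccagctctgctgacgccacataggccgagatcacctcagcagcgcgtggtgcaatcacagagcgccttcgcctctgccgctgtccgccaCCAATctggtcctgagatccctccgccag
Sc4mol: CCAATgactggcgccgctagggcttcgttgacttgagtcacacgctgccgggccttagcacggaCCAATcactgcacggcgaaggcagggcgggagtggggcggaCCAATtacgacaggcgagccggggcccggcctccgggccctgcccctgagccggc
Abca1: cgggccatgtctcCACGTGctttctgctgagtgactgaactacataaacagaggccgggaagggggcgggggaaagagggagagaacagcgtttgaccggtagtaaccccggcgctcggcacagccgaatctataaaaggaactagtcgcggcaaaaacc
Sc4mol holds 3 NF-Y boxes in its window and Idi1 holds 2, while the Abca1 window has an E-box and none of the other motifs.

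The lymphoma lines differed from untreated splenic B cells in nearly the whole synthesis route. Of the 29 genes, 21 were higher and 3 lower in the 9 lines than in the 2 untreated samples (limma across all genes, Benjamini-Hochberg adjusted p below 0.05), with a median difference of 1.88 log2 units. Over all 21372 genes tested, 14.7% were higher and 21.1% lower, with a median of -0.01. The higher genes were 6 of the 7 early enzymes, 10 of the 11 later enzymes, 4 of the 5 regulators and transport proteins and 1 of the 4 fatty acid genes, and both exporters were lower. For 22 genes every line lay above both untreated samples and for 2 genes every line lay below, where 19.8% and 24.4% of all tested genes were separated in these ways. Within each of the 3 slides that hold these arrays, 25 of 29 differences were positive. In bulk RNA, fewer cells of a type and less RNA per cell cannot be told apart. A list of 12 proliferation markers moved with this contrast, with a mean log2 ratio of -0.54 to 0.69 in the lines and -1.20 and -1.16 in untreated cells. A list of 9 germinal centre B cell markers moved too, from -2.37 and -1.96 in untreated cells to -0.57 to -0.11 in the lines, and lists of T cells, NK cells, macrophages, neutrophils, erythroid and stromal cells were lower in the lines, with the values given beside the exporters. The part of these lists in the result was not tested.

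**Figure D1:**
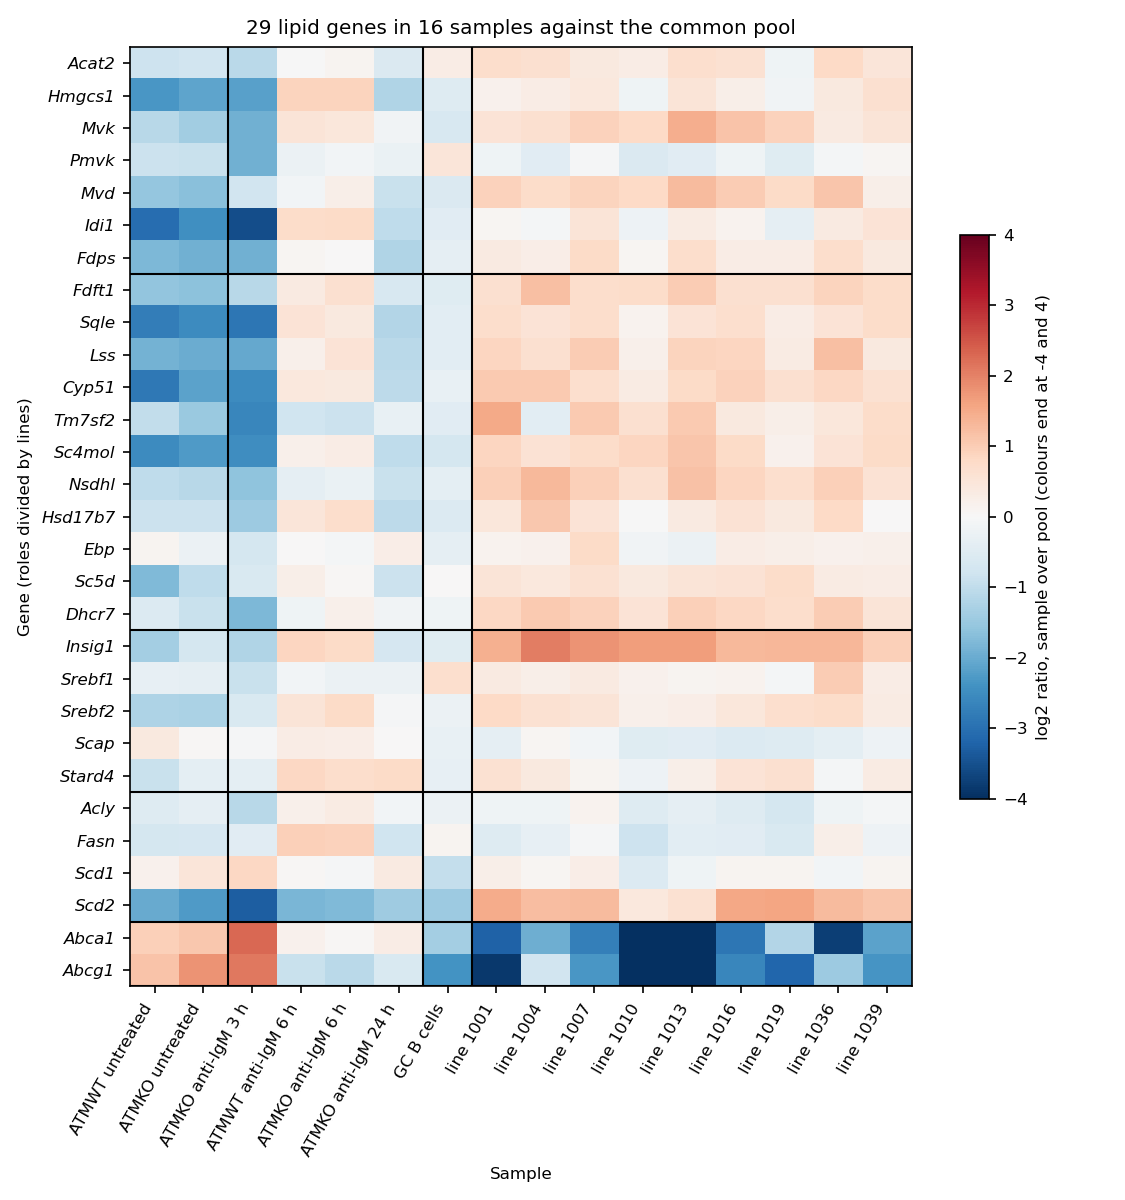
Heat map of the log2 ratio to the pool for the 29 genes (rows, grouped by role) in the 16 samples (columns), with colours ending at -4 and 4. Rows such as Hmgcs1, Idi1, Sqle, Cyp51 and Sc4mol are low in both untreated samples and in the 3 h anti-IgM sample and near or above 0 in the 6 h samples and the lymphoma lines. Scd2 stays low at 6 h (-1.82 and -1.77), Ebp and Scd1 are not low in untreated cells, and the exporter rows run the other way in the lines.

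Hmgcs1, the synthase that makes HMG-CoA at the head of the pathway, was at -2.33 and -2.12 in the untreated ATMWT and ATMKO samples and at -0.17 to 0.62 (median 0.29) in the lines. All 9 lines were above both untreated samples, a difference of 2.49 ± 0.58 (SE; limma adjusted p = 0.003656). Idi1, the isomerase that supplies the activated isoprene unit, was at -3.03 and -2.44 untreated and at -0.35 to 0.55 (median 0.15) in the lines, 2.89 ± 0.75 higher (limma adjusted p = 0.007675). Neither gene overlapped between the groups. Mvd, the decarboxylase one step before Idi1, had the smallest error of the early enzymes. It was at -1.54 and -1.66 untreated and at 0.25 to 1.27 (median 0.89) in the lines, 2.46 ± 0.27 higher (limma adjusted p = 7.872e-06), which is a 5.5-fold difference. Fdps, which joins isoprene units into farnesyl diphosphate, was 2.29 higher, and its probe was saturated on 1 array. Mvk, mevalonate kinase, was 2.05 higher, and Acat2, the thiolase that starts the route, was 1.29 higher. Pmvk, phosphomevalonate kinase, did not pass, with 0.61 ± 0.34 (limma adjusted p = 0.1838), although its lines, at -0.59 to 0.07, lay above the untreated values of -0.86 and -0.88. The median of the 7 early enzymes was 2.29.

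Among the enzymes from squalene to cholesterol, the differences of Sqle, Cyp51 and Sc4mol were the 3 largest. Sqle, the squalene epoxidase (probe at chr15:59162688-59162747 on mm9, plus strand), was at -2.78 and -2.52 untreated and at 0.14 to 0.74 (median 0.56) in the lines. The difference was 3.19 ± 0.59 (limma adjusted p = 0.0006755), or 9.14-fold. Cyp51, the lanosterol demethylase, was at -2.84 and -2.13 untreated and at 0.31 to 1.05 (median 0.76) in the lines, 3.25 ± 0.53 higher (limma adjusted p = 0.0002682). For both genes the lowest line lay more than 2 log2 units above the higher untreated sample. Sc4mol (Msmo1), a methyl sterol oxidase, was at -2.51 and -2.25 untreated and at 0.16 to 1.104 in the lines, 3.09 higher. Lss, which closes the sterol ring system (probe at chr10:76015992-76016051 on mm9, plus strand), was at -1.89 and -1.98 untreated and at 0.20 to 1.22 in the lines, 2.65 ± 0.48 higher (limma adjusted p = 0.0005688). The other enzymes of the group had smaller differences. Fdft1, squalene synthase, was 2.41 higher, although its second probe, well above background on 18.8% of the arrays, gave 0.11. The dehydrogenase gene Nsdhl was 1.96 higher, and the desaturase gene Sc5d and the reductase gene Tm7sf2 were each 1.88 higher. Dhcr7, the reductase of the last step, was 1.54 higher and Hsd17b7, a ketosterol reductase, 1.32 higher, with 1.24 and 0.51 by its other probes, above background on 93.8% and 87.5% of the arrays. Ebp, the sterol isomerase, was the exception with 0.26 ± 0.24 (limma adjusted p = 0.4366), and its lines, at -0.25 to 0.77, overlapped the untreated values of 0.10 and -0.25. The median of the 11 later enzymes was 1.96. A second probe of Hmgcs1, dimmer and above background on 75% of the arrays, gave 0.85 where the brighter gave 2.49.

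The regulators were not uniform. Insig1, which retains SCAP and is itself an SREBP target, was at -1.36 and -0.70 untreated and at 0.96 to 2.05 (median 1.42) in the lines, 2.53 ± 0.43 higher (limma adjusted p = 0.0003582). Srebf2, whose product acts mainly on cholesterol genes, was at -1.24 and -1.27 untreated and at 0.20 to 0.81 in the lines, 1.77 higher. The lines were above the untreated samples for both genes with no overlap. Srebf1, the gene of the isoform linked to fatty acid synthesis, was 0.63 ± 0.23 higher (limma adjusted p = 0.04862), close to the threshold. Stard4, a carrier that moves sterol between membranes, was 0.93 higher with 1 probe and 1.44 with its second. Scap went the other way, at 0.38 and 0.06 untreated and at -0.55 to 0.06 (median -0.40) in the lines, a difference of -0.55 ± 0.16 (limma adjusted p = 0.01611). The highest line, at 0.065, lay just above the lower untreated sample, at 0.061, so the groups of Scap overlapped.

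Fatty acid synthesis was split. Scd2, a desaturase that makes monounsaturated fatty acids and is best known from brain (probe at chr19:44381024-44381083 on mm9, plus strand), was at -2.002 and -2.27 untreated and at 0.42 to 1.59 (median 1.26) in the lines. The difference of 3.30 ± 0.39 was 9.88-fold (limma adjusted p = 1.609e-05), and its probe was well above background on all 24 pool arrays. Scd1, the related desaturase best known from liver, was at 0.17 and 0.49 untreated and at -0.53 to 0.28 in the lines, with no call (-0.31 ± 0.22, limma adjusted p = 0.2943). Fasn, fatty acid synthase, was at -0.71 and -0.66 untreated and at -0.82 to 0.22 in the lines, 0.33 ± 0.38 (limma adjusted p = 0.5313). Acly, which makes cytosolic acetyl-CoA from citrate, gave 0.16 ± 0.29 (limma adjusted p = 0.7071). So of the 4 genes only Scd2 passed in this comparison.

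The 2 exporters had the largest differences of all members and the opposite sign. Abca1, which passes cholesterol to lipid-poor apolipoprotein (probe at chr4:53043944-53044003 on mm9, minus strand), was at 0.94 and 1.06 in untreated cells and at -4.28 to -1.17 (median -2.90) in the lines. The measured log2 difference was -3.94 ± 0.73 (limma adjusted p = 0.0007024), and no fold is given because spots of some lines were not above background. Abcg1, which passes cholesterol to high-density lipoprotein (probe at chr17:31252580-31252639 on mm9, plus strand), was at 1.15 and 1.80 untreated and at -5.47 to -0.78 (median -2.61) in the lines, a difference of -4.37 ± 0.99 (limma adjusted p = 0.003025). Every line lay below both untreated samples for both genes. The lowest line levels are near the detection limit, and the sizes of both differences are uncertain for that reason, since Abca1 was well above background on 8 of 12 and Abcg1 on 10 of 12 lymphoma arrays. Both genes are also strongly expressed by macrophages, and a list of 12 macrophage markers moved the same way, as did the lists of every other cell type outside the B lineage. The mean log2 ratio of the macrophage list was 0.62 and 0.74 in the untreated samples and -2.35 to -1.23 in the lines, where 10 of the 12 genes were still above background on 50% or more of the arrays and C1qa was above it on none. The lists of neutrophils (8 genes), NK cells (6) and erythroid cells (7) went from 1.22 to 1.54 untreated, over the 3 lists, to -5.32 to -2.96, -2.70 to -1.19 and -2.60 to -1.38 in the lines. T cell (9 genes) and stromal (6) lists went from 0.44 to 0.89 untreated, over both lists, to -2.55 to -0.97 and -1.86 to -0.87. In the lines 8 of 8 neutrophil, 4 of 6 NK, 5 of 7 erythroid, 7 of 9 T cell and 1 of 6 stromal genes were above background on 50% or more of the arrays. Above it on none were Klrd1 of the NK list, Epb4.2 of the erythroid list, Cd8a of the T cell list and Col1a1, Col3a1, Fn1 and Vcam1 of the stromal list. The part of these lists in the exporter result was not tested.

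**Figure D2:**
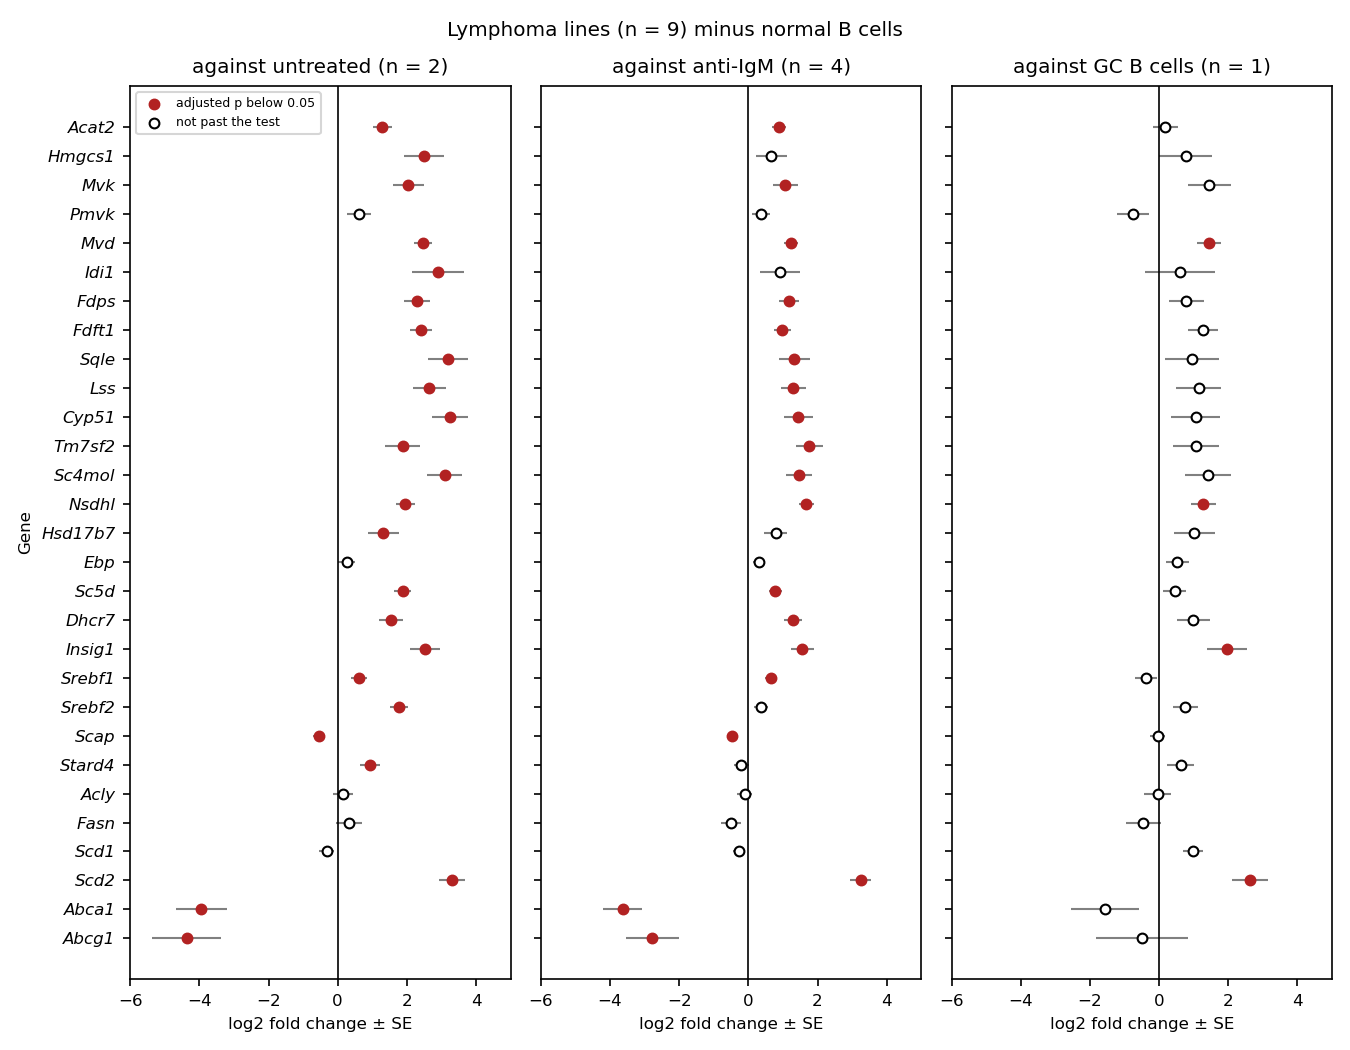
Log2 difference (points) with its standard error (bars) of the 9 lymphoma lines from untreated B cells (n = 2), anti-IgM B cells (n = 4) and GC B cells (n = 1) for each gene, filled where the adjusted p was below 0.05. The enzymes of the cholesterol route sit between 0.26 and 3.25 in the untreated panel and Scd2 at 3.30, and Abca1 and Abcg1 sit at -3.94 and -4.37.

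**Figure D3:**
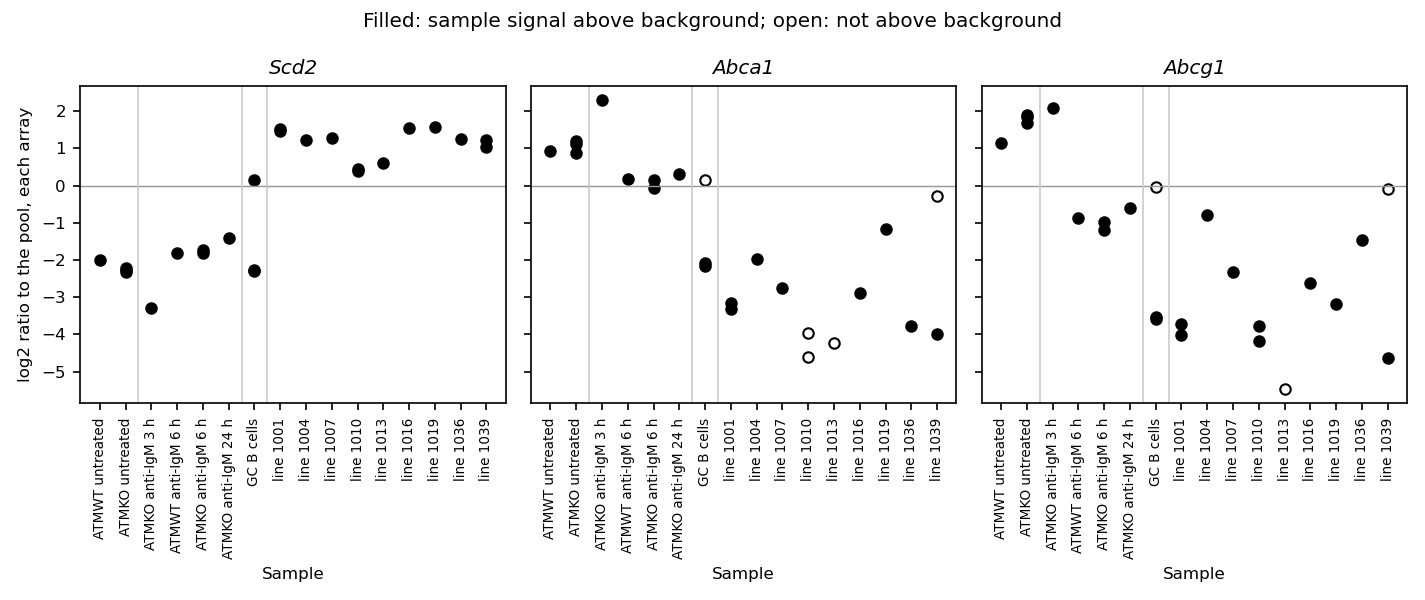
Log2 ratio to the pool of Scd2, Abca1 and Abcg1 on each of the 24 pool arrays, by sample, with open symbols where the spot was not well above background. Scd2 is at 0.39 or more on every array of the lines and at -1.42 or less on every array of splenic B cells, and the first arrays of GC B cells and line 1039 lie near 0 for Abca1 and Abcg1 where their repeats lie far below.

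Genes of the wider pathway were counted in the same comparison, where 14.7% of all genes were higher and 21.1% lower. Of 18 other genes of sterol synthesis, uptake and sensing that were tested, 3 were higher and 5 lower in the lines than in untreated cells, with a median of -0.12, which is near the shares over all genes. The lower genes included Nr1h3, which encodes LXR alpha, at -1.85, and Soat1, which esterifies cholesterol for storage, at -1.78. Of 20 other genes of fatty acid and glycerolipid synthesis, 6 were higher and 1 lower, with a median of 0.30. The higher genes included the polyunsaturated fatty acid desaturases Fads2 (2.18) and Fads1 (2.13) and the acyl-CoA synthetase Acsl3 (1.73), and the triglyceride synthesis gene Dgat1 was lower, at -1.28. Of 10 tested genes of fatty acid oxidation, Cpt1a, the gate for mitochondrial import of fatty acids, was lower (-1.56) and Decr1, an auxiliary enzyme of oxidation, was higher (0.49).

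In normal B cells stimulated through IgM the synthesis genes moved in a time-dependent way. The labels give no time for the untreated samples and name no untreated culture at 3, 6 or 24 h. Anti-IgM and hours in culture therefore cannot be told apart. The proliferation list did not rise with the synthesis genes. Its mean log2 ratio was -1.16 and -1.20 untreated, -1.84 at 3 h, -1.83 in both 6 h samples and -1.61 at 24 h. The B cell list was at 0.355 and 0.289 untreated, -0.30 at 3 h, -0.805 and -0.83 at 6 h and 0.001 at 24 h. The part of these lists was not tested. With 3, 6 and 24 h pooled against untreated cells and genotype as a covariate, no member passed (limma, 0 of 29, and 0% of all genes in each direction), 5 members had an unadjusted p below 0.05 and the lowest adjusted p was 0.5931. The samples of the 3 times lay far apart, and a fit with 1 mean for each time was therefore added after the data had been seen. In it the single samples at 3 h and 24 h are assumed to vary like the other groups. At 3 h, 0 members were higher (2.65% of all genes) and 2 lower (5.29% of all genes), Pmvk at -1.03 and Dhcr7 at -1.06. At 6 h, 18 of 29 were higher (5.28% of all genes) and 0 lower (4.44%), with a median of 1.46. At 24 h, 7 were higher (1.99%) and 0 lower (1.2%).

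Idi1 showed the largest rise at 6 h. It was at -3.03 and -2.44 in untreated ATMWT and ATMKO cells, at -3.54 in ATMKO cells at 3 h, at 0.73 and 0.76 in ATMWT and ATMKO cells at 6 h and at -1.01 in ATMKO cells at 24 h. The 6 h samples of both genotypes were thus the highest and 3 h the lowest, and 6 h lay 3.48 ± 0.29 above untreated cells (limma adjusted p = 0.0001133). Hmgcs1 took the same course, from -2.33 and -2.12 untreated through -2.18 at 3 h to 0.90 and 0.89 at 6 h and -1.20 at 24 h, 3.12 above untreated at 6 h (limma adjusted p = 7.253e-05). Sqle was at -2.89 at 3 h, 0.53 and 0.39 at 6 h and -1.16 at 24 h, 3.11 ± 0.19 above untreated at 6 h (limma adjusted p = 2.462e-05). Cyp51 rose by 2.89, Sc4mol by 2.63, Lss by 2.32 and Fdft1 by 2.12 at 6 h. In all, 5 of 7 early enzymes, 9 of 11 later enzymes, 3 of 5 regulators and transport genes, 1 of 4 fatty acid genes and 0 of 2 exporters were higher at 6 h.

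Among the regulators Srebf2 was at -0.62 at 3 h, 0.53 and 0.75 at 6 h and -0.05 at 24 h, 1.90 above untreated at 6 h. Insig1 was at -1.20, 0.86 and 0.77, and -0.66 at these times, 1.85 above untreated at 6 h. Stard4 was 1.42 above untreated at 6 h. Fasn, not called between the lines and untreated cells, was at -0.44 at 3 h, 0.95 and 0.92 at 6 h and -0.78 at 24 h, 1.62 ± 0.27 above untreated at 6 h (limma adjusted p = 0.00346). Scd2, the gene with the largest rise in the lines, was at -1.82 and -1.77 at 6 h against -2.002 and -2.27 untreated, 0.34 ± 0.34 with no call (limma adjusted p = 0.6416). The remaining genes that rose at 6 h were Fdps (1.91), Mvk (1.73), Mvd (1.66), Sc5d (1.54), Hsd17b7 (1.46), Nsdhl (0.75) and Dhcr7 (0.74).

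The change over time was tested directly in the same added fit. From 3 h to 6 h, 20 members rose and 0 fell, where 9.13% of all genes rose and 5% fell. From 6 h to 24 h, 0 rose and 12 fell, where 3.29% of all genes rose and 4.71% fell. Hmgcs1 fell by 2.09 and Hsd17b7 by 1.64 on the log2 scale from 6 h to 24 h. The genes still above untreated at 24 h were Idi1 (1.73), Sqle (1.48), Cyp51 (1.45), Stard4 (1.43), Sc4mol (1.35), Srebf2 (1.21) and Fdft1 (0.98). The 3 h and 24 h steps rest on 1 ATMKO sample each. For the leave-out fits that follow, the share of all genes called was not counted. Whether their counts are particular to the members is therefore not known. Without the ATMWT untreated sample 0 members were called at 3 h and 2 at 24 h, and without the ATMKO untreated sample 4 were called at 24 h. For the step from 6 h to 24 h, 4 members were called without the ATMWT 6 h sample and 3 without the ATMKO 6 h sample.

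**Figure D4:**
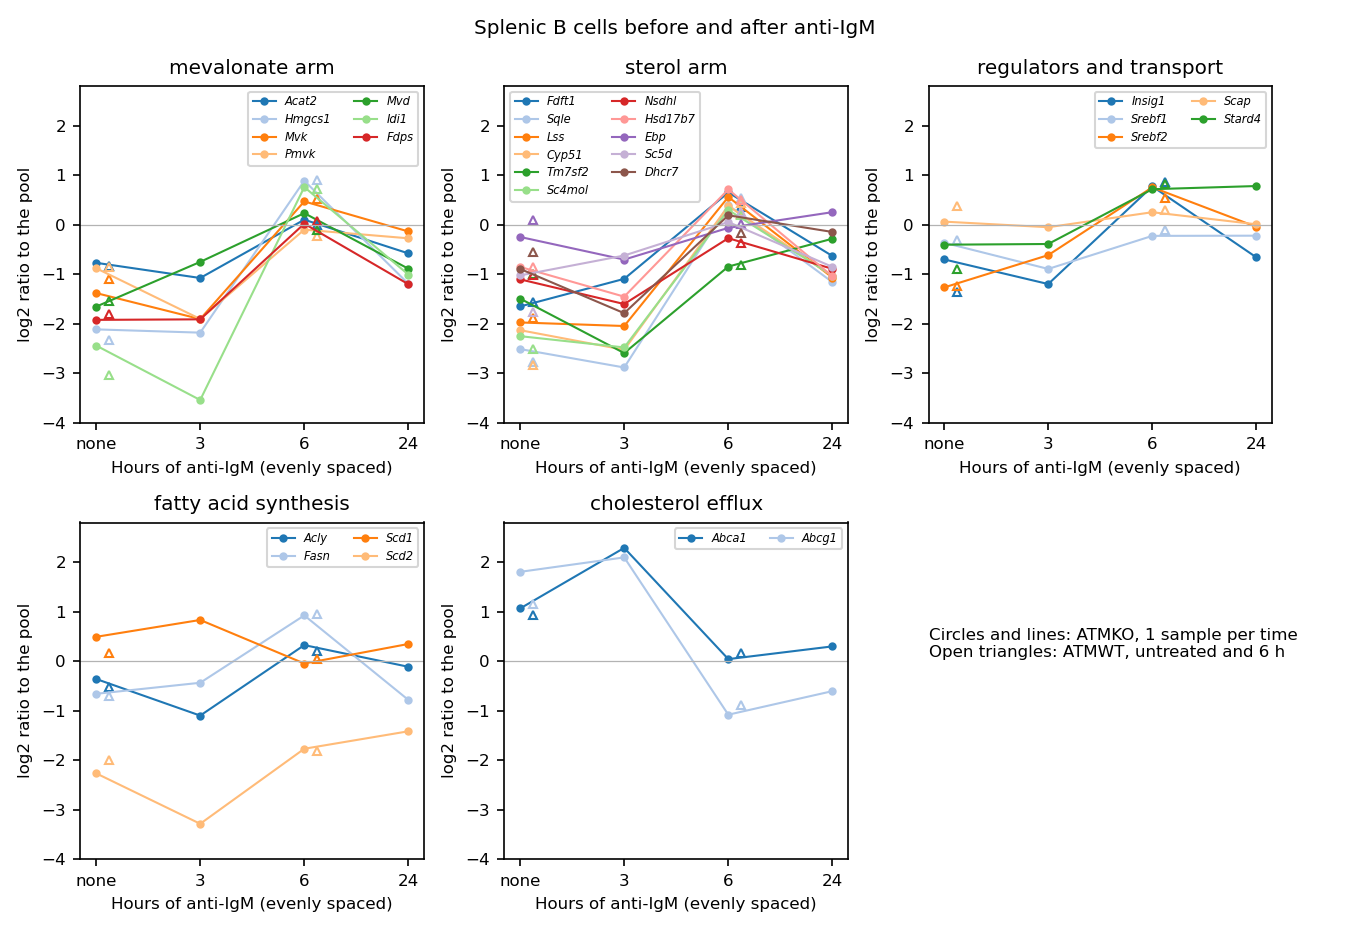
Log2 ratio to the pool by hours of anti-IgM stimulation, in 5 panels by role; circles joined by lines are ATMKO samples (1 per time) and open triangles are ATMWT samples (untreated and 6 h). Most synthesis genes are low at 0 and 3 h, highest at 6 h and lower at 24 h, and the ATMWT triangles lie close to the ATMKO circles at 6 h.

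Whether ATM status changed these genes in normal B cells could not be decided here. In the splenic fit 0 of 29 members passed between ATMKO and ATMWT (0% of all genes in each direction, limma), none had an unadjusted p below 0.05 and the lowest adjusted p was 0.9998. With 1 sample for each genotype, treatment and time, the power of this comparison is low. The 3 h and 24 h samples are of ATMKO cells alone and that fit pools the times. Genotype and time are therefore not fully separated in it, and its spread holds the differences between times. At 6 h, 24 of 29 genes were above untreated cells in both genotypes (32.7% of all tested genes) and 16 of 29 were more than 1 log2 unit above in both (2.1%), with a median of 1.43 in ATMWT and 1.12 in ATMKO cells. In the 4 untreated and 6 h samples fitted alone, 21 members were higher (12% of all genes) and 2 lower (16.5% of all genes). The lower genes in that fit were Abca1 at -0.90 and Abcg1 at -2.46.

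The exporters did not pass at any anti-IgM time in the fit of all 16 samples. Abca1 was at 2.29 at 3 h, 0.17 and 0.04 at 6 h and 0.30 at 24 h, and Abcg1 was at 2.10, -0.88 and -1.08, and -0.61 at these times, against 0.94 to 1.80 in untreated cells. The 3 h sample was above the untreated samples for both genes and the later samples below. At 6 h the difference from untreated cells was -0.90 ± 0.86 for Abca1 (limma adjusted p = 0.6138) and -2.46 ± 1.15 for Abcg1 (limma adjusted p = 0.2161), with errors larger than those given above for the synthesis genes. The macrophage list had a mean log2 ratio of -0.34 to 0.97 over the stimulated samples, and its part was not tested.

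Against the stimulated samples as a group the lymphoma lines still had higher levels of many synthesis genes. Of 29 members, 16 were higher and 3 lower, where 21.3% of all genes were higher and 24.8% lower, with a median of 0.88 against 0.01 over all genes. Every line lay above all 4 stimulated samples for 7 members (11.3% of all tested genes) and below for 1 (14%), and the groups overlapped for 21, because the stimulated group spans the low 3 h and the high 6 h samples. Scd2 was 3.25 ± 0.30 higher (limma adjusted p = 8.906e-07), Tm7sf2 1.77, Nsdhl 1.68 and Insig1 1.56. Abca1 was at -3.63, Abcg1 at -2.77 and Scap at -0.46. Genes with no call included Hmgcs1, Idi1, Hsd17b7, Srebf2, Stard4, Pmvk, Ebp, Acly, Fasn and Scd1. This comparison and the one with untreated cells share the lymphoma samples.

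Set against the 6 h samples alone, in the added fit, the shares of members called were near or below those of all genes. Of 29 members, 6 were higher (19.1% of all genes) and 5 lower (25.2% of all genes), with a median of 0.29, and with median centring in place of loess the split was 3 higher and 9 lower. Scd2 was at -1.82 and -1.77 at 6 h and at 0.42 or more in every line, 2.97 ± 0.27 higher (limma adjusted p = 6.072e-06). The others that were higher were Tm7sf2 (1.46), Nsdhl (1.21), Mvd (0.80), Dhcr7 (0.80) and Insig1 (0.69). The lower genes were Abca1 (-3.04), Fasn (-1.29 ± 0.21, limma adjusted p = 0.0003242), Hmgcs1 (-0.63), Scap (-0.61) and Acly (-0.55). Every line lay above both 6 h samples for 8 genes and below both for 7, shares close to the 21.9% and 26.6% of all tested genes, and the other 14 overlapped. Sqle, Cyp51, Lss and Sc4mol, with large rises in both settings, were among those that overlapped. For the 2 leave-out fits that follow, the share of all genes called was not counted. Whether their counts are particular to the members is therefore not known. Without the ATMWT 6 h sample 4 genes were called, and without the ATMKO 6 h sample 6.

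GC B cells divide rapidly in the spleen of immunised mice. Their value was above the mean of untreated cells for 24 of 29 members, as for 48.6% of all tested genes, and below every lymphoma line for 21, as for 21.3%. GC B cells are 1 biological sample, and in the tests that follow it is assumed to vary like the other groups, which alone supply the spread. Idi1 was at -0.44, Hmgcs1 at -0.50, Sqle at -0.41 and Cyp51 at -0.30 in GC B cells as the mean of 3 arrays. Of 29 members, 4 were higher (4.4% of all genes) and 0 lower (5.35% of all genes) in the lines than in GC B cells, with a median of 0.79, and 8 had an unadjusted p below 0.05. They were Scd2 (2.64 ± 0.52, limma adjusted p = 0.005866), Insig1 (1.97, adjusted p = 0.0452), Mvd (1.44, adjusted p = 0.02015) and Nsdhl (1.27, adjusted p = 0.03984). For 1 gene every line lay below the GC value, as for 25.4% of all tested genes. The share of all genes called was not counted for the leave-out fits that follow, so whether their counts are particular to the members is not known. Leaving out 1 sample moved this count: 10 members were called without the ATMKO 3 h sample, and 2 without line 1001, 1007, 1013, 1016 or 1036 or either untreated sample.

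The GC value depends on an array that stands apart. Scd2 was at 0.15 on the first GC array and at -2.28 and -2.26 on the repeats. Abcg1 was at -0.04 on the first and at -3.54 and -3.59 on the repeats, and Abca1 was at 0.15, not well above background, on the first and at -2.16 and -2.09 on the repeats. The first array thus lay near the pool for each of these genes and the repeats lay far below it. Without the first arrays of GC B cells and line 1039, 6 members were higher than in GC B cells, where 6.83% of all genes were, and 0 lower, with a median of 0.99. They were Scd2 (3.45), Insig1 (2.24), Mvd (1.55), Nsdhl (1.46), Fdft1 (1.48) and Scd1 (1.54).

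Compared with the other normal B cells, few members passed the test in GC B cells. That does not show that the other members were alike. The GC value and the mean of untreated cells were -0.445 and -2.738 for Idi1 and -0.407 and -2.646 for Sqle. GC B cells were above that mean for 24 of 29 members, as for 48.6% of all tested genes. The fit pools the anti-IgM times as 1 group, with an SD of 2.027 for Idi1 and 1.6 for Sqle. Its error holds the differences between times. Against untreated cells, Sc5d was higher (1.42 ± 0.38, limma adjusted p = 0.02546, with 4.61% of all genes higher) and Scd1 lower (-1.30 ± 0.35, limma adjusted p = 0.02515, with 6.89% of all genes lower), and 13 members had an unadjusted p below 0.05. Against stimulated cells 0 were higher (7.23% of all genes) and Scd1 was lower (-1.26 ± 0.32, limma adjusted p = 0.01578, with 6.93% of all genes lower). Without the ATMKO 3 h sample 11 members were called against untreated cells and 2 against stimulated cells; without either untreated sample 1 was called against untreated cells, and without line 1036, 2 against stimulated cells. The share of all genes called was not counted for these leave-out fits, so how far the members stand out in them is not known. Scd1 was at 0.14 on the first GC array and at -1.52 and -1.51 on the repeats. Sc5d had no value on the first GC array, so its GC value rests on the repeats alone. For 25 of the 29 members the GC value includes that array, so Sc5d is not on the same footing as most others.

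With all arrays and no term for the slide, no difference among the 9 lymphoma lines passed in these genes. The only measure of error within a line is the technical repeats of 3 lines, and in that F test 0 of 29 members passed (limma, 2.38% of all genes), with 6 unadjusted p-values below 0.05, those of Hmgcs1, Mvk, Tm7sf2, Fasn, Scd1 and Scd2. The repeats of line 1039 differed by 3.71 for Abca1 and 4.55 for Abcg1. Without line 1039, 16 of 29 members passed, where 41.7% of all genes did. With line 1039 kept and the slide as a block, all 29 members passed, and the share of all genes was not counted. The result among lines thus depends on the fit. Those p-values speak of technical error alone.

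Spread among lines was widest for the exporters, with an SD of 1.42 and a range of 4.69 for Abcg1 and an SD of 1.06 and a range of 3.10 for Abca1. Abcg1 was at -0.78 in line 1004, the highest, and at -5.47 in line 1013, the lowest. Abca1 was highest in line 1019 (-1.17) and lowest in line 1010 (-4.28). The lines that were highest for the 2 genes were thus different ones. The lowest values are at the detection limit, since Abca1 was not well above background on either array of line 1010 or on that of line 1013, nor Abcg1 on that of line 1013, and the first array of line 1039 was below it for both genes. The order of the lowest lines is therefore not known and the SD and range of both genes are uncertain. Of the synthesis genes Tm7sf2 varied most, from -0.42 in line 1004 to 1.52 in line 1001, and Sc5d least, with an SD of 0.14. Line 1010 was the lowest line for Hmgcs1, Pmvk, Fdps, Sqle, Lss, Cyp51, Hsd17b7, Srebf2, Stard4, Fasn, Scd1, Scd2 and Abca1. These order statistics carry no test.

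BTK carries the signal of the B cell receptor, and the drug arrays ask whether the synthesis genes of lymphoma cells respond when it is blocked. Of the 29 genes, 24 were tested, because 5 (Hmgcs1, Sqle, Sc4mol, Ebp and Scd2) lacked a value on the array of line 178119 at 1 h. Drug values depend on how the dyes are balanced. With median centring in place of loess the median of all tested genes was not near 0 but at 0.60, 0.59, 0.24 and 0.30 at 1, 3, 6 and 24 h, so higher and lower are stated here relative to the median of all tested genes. On that footing all members called at 3, 6 and 24 h kept their side under median centring, and 10 of 14 called for the mean of the 4 times did, the exceptions being Fdft1, Fdps, Pmvk and Scap.

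How many members lay below the median of all tested genes depended on the scaling. After loess, 11, 20, 17 and 15 of 24 lay below it at 1, 3, 6 and 24 h and 19 for the mean of the 4 times, and with median centring 5, 13, 14, 11 and 9 did. The median of the members relative to that of all genes moved with median centring from 0.009 to 0.224 at 1 h, from -0.317 to -0.045 at 3 h, from -0.380 to -0.149 at 6 h, from -0.124 to 0.019 at 24 h and from -0.188 to 0.035 for the mean. The calls that follow are those after loess. At 1 h, 0 members passed in either direction (0.028% of all genes higher and 0.0729% lower, limma), and 5 had an unadjusted p below 0.05. At 3 h, 1 was higher (3.13% of all genes) and 6 lower (4.22%). At 6 h, 3 were higher (12% of all genes) and 12 lower (12.3%), with a median of -0.37. At 24 h, 3 were higher (11.1%) and 4 lower (12.1%). For the mean of the 4 times 3 were higher (16.7%) and 11 lower (15.7%), with a median of -0.18. Taken against 0 under median centring, the splits of higher to lower were 22 to 0 at 1 h, 16 to 0 at 3 h, 4 to 0 at 6 h, 5 to 0 at 24 h and 22 to 0 for the mean. The median of all tested genes was itself above 0 there, and the share of all genes called was not counted. These splits are therefore not a result about the members. After loess both lines were below 0 for 19 of 29 genes at 3 h (32.5% of all genes), 19 at 6 h (35.1%) and 14 at 24 h (35.9%), and for 6 of 24 at 1 h (28.6%). No difference between the 2 lines passed for any member (0% of all genes in each direction, limma; 0 members with an unadjusted p below 0.05).

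Lss was the gene with the largest drop at 6 h. In line 178119 its log2 ratio of drug to DMSO was -0.14, -0.71, -0.78 and -0.34 at 1, 3, 6 and 24 h, and in line 28545 it was 0.18, -0.50, -0.95 and -0.64. Both lines were lowest at 6 h, and the mean was -0.87 ± 0.12 there (limma adjusted p = 0.0008699; lower relative to the median of all tested genes under both scalings). Mvd was at -0.10, -0.51, -0.64 and -0.05 in line 178119 and at 0.26, -0.45, -0.88 and -0.54 in line 28545, and passed at 6 h (-0.76). Idi1 was at -0.23, -0.67, -0.70 and -0.29 in line 178119 and at -0.40, -0.54, -0.58 and -0.19 in line 28545, so that all 8 arrays were below 0. It passed at 3 h (-0.61 ± 0.10, limma adjusted p = 0.005704) and at 6 h (-0.64). Hsd17b7 had the largest drop at 3 h (-0.76 ± 0.14, limma adjusted p = 0.0105), with -0.82 and -0.70 in the 2 lines. The others called lower at 3 h were Lss (-0.60), Cyp51 (-0.44), Sc5d (-0.49) and Fasn (-0.52), and at 6 h Dhcr7 (-0.68), Fasn (-0.59), Hsd17b7 (-0.53), Nsdhl (-0.47), Acly (-0.45), Fdft1 (-0.39), Scap (-0.39), Sc5d (-0.38) and Acat2 (-0.37).

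At 24 h a partly different set was called. Lss (-0.49), Fdps (-0.41), Pmvk (-0.35) and Acat2 (-0.33) were lower and Scd1 was higher (0.43), relative to the median of all tested genes, as were Tm7sf2 and Abca1. Fdps, Pmvk and Scd1 had not been called at 3 h or 6 h, and none of them passed the F test over the 4 times given below. The means at 1, 3, 6 and 24 h were -0.26, -0.33, -0.27 and -0.41 for Fdps. For Pmvk they were 0.03, -0.18, -0.27 and -0.35. Marker lists also moved at 24 h. The proliferation list had a mean log2 ratio of -0.75 and -0.36 in lines 178119 and 28545, against 0.03 to 0.18 on the arrays of the earlier times, the B cell list 0.88 and 0.72 (-0.23 to 0.21 earlier) and the germinal centre list 0.91 and 0.79 (-0.07 to 0.54 earlier), and their part in the 24 h values was not tested. Fasn, at -0.51 and -0.52 at 3 h and -0.51 and -0.68 at 6 h, was at 0.15 and 0.22 at 24 h. Insig1 was not called at any time, and its 2 lines differed, at -0.78, -0.90, 0.65 and 0.30 in line 178119 and -0.08, -0.42, 0.02 and -0.35 in line 28545. Srebf2 was called lower only for the mean of the 4 times (-0.28), and its second probe had a mean of -0.09. The genes without a value at 1 h were tested in an added fit that allowed the missing value. Of these, Hmgcs1 (-0.64), Sqle (-0.62) and Sc4mol (-0.48) were lower at 3 h, in both lines. Ebp and Scd2 were not, with means of 0.15 and 0.10 at 3 h. Mvk, Srebf1 and Stard4 were called at no time, nor were Ebp and Scd2 in the added fit. The second probe of Stard4, above background on 96.9% of the arrays, was lower than the brightest. Its mean over the drug arrays was -0.48, against -0.16 for the brightest, and it was not tested.

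The exporters moved up with drug, relative to the median of all tested genes. Abcg1 was at 0.10, 0.55, 1.02 and -0.02 in line 178119 and at -0.08, 0.54, 0.94 and 0.18 in line 28545, and passed at 3 h (0.54 ± 0.10, limma adjusted p = 0.01042) and 6 h (0.98 ± 0.10, limma adjusted p = 0.0001761). Both lines were highest at 6 h and near 0 again at 24 h. Abca1 was at 0.34, 0.56, 0.75 and 1.29 in line 178119 and at 0.07, 0.17, 0.79 and 0.99 in line 28545. It was highest at 24 h in both lines (1.14 ± 0.12, limma adjusted p = 0.0003463). Of the member enzymes of the cholesterol route Tm7sf2 alone was called higher at 6 h (0.69) and at 24 h (0.49). The macrophage list had a mean log2 ratio of -0.08 to 0.16 over the drug arrays, with 6 of its 12 genes above background on 50% or more of them and C1qa on none, and its part was not tested.

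**Figure D5:**
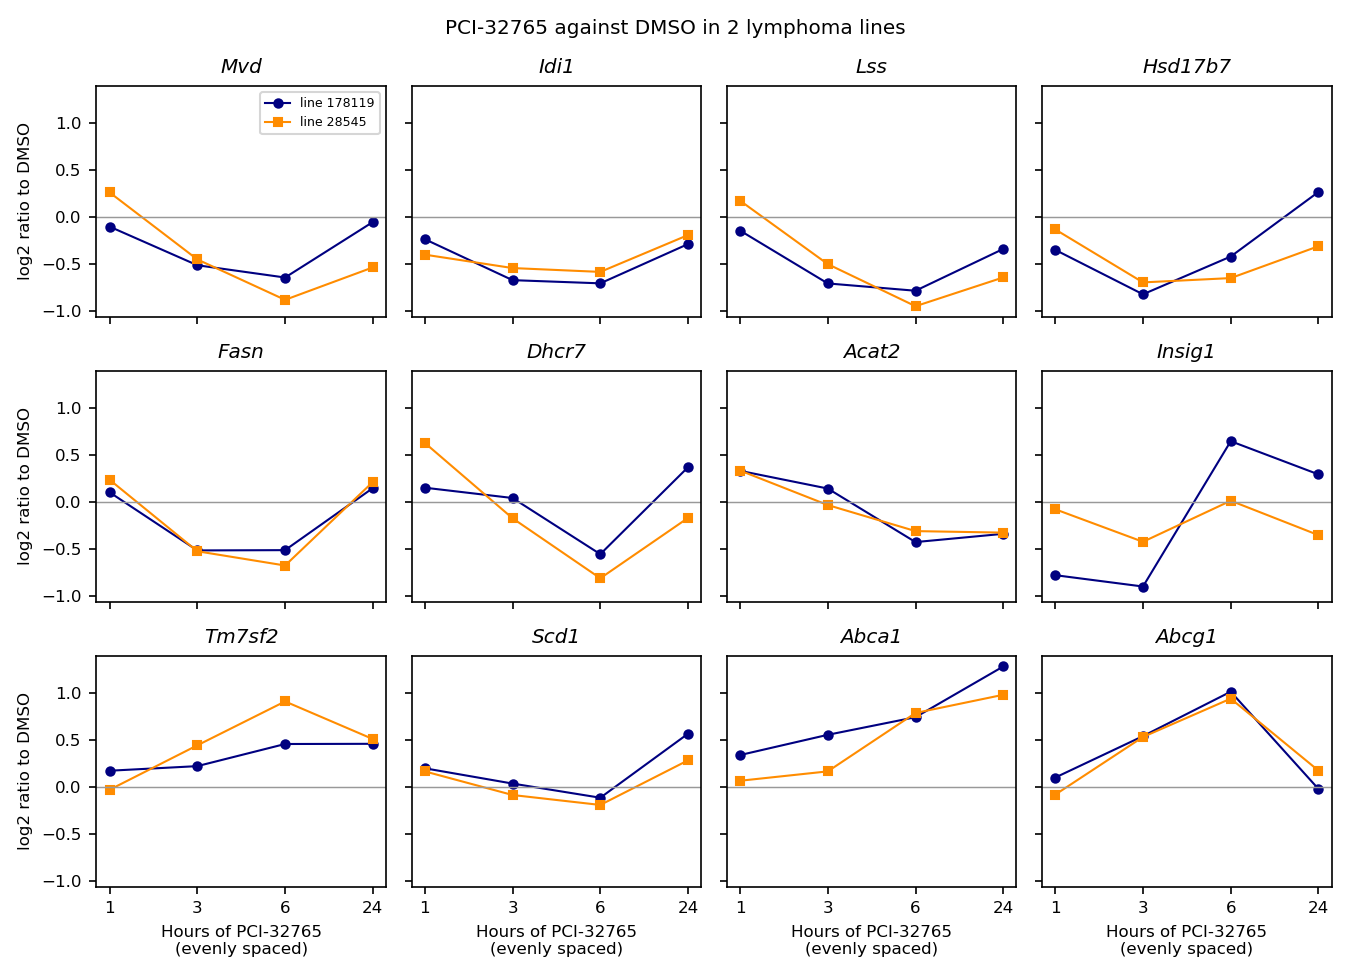
Log2 ratio of PCI-32765 to DMSO by hours of treatment for 12 genes, with line 178119 and line 28545 drawn apart; 0 is about the median of all tested genes after loess. Relative to that median Mvd, Idi1, Lss, Hsd17b7, Fasn and Dhcr7 are lower at 6 h in both lines, and Tm7sf2, Abca1 and Abcg1 are higher.

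The time course was tested in 2 ways. Between 1 h and 24 h, Acat2 fell by 0.67 (limma adjusted p = 0.01805) and Abca1 rose by 0.93 (limma adjusted p = 0.01547), 1 of 24 members in each direction, where 3.73% of all genes fell and 3.49% rose. An F test over the 4 times, added after the data had been seen, passed for 6 of 24 members, Acat2, Lss, Dhcr7, Fasn, Abca1 and Abcg1, where 14% of all genes passed. Each time rests on 1 array per line. For the leave-out fits that follow, the share of all genes called was not counted. Whether their counts are particular to the members is therefore not known. Without either array of a time, 0 members were called at 3 h, 7 at 6 h and 2 at 24 h; between 1 h and 24 h, 0 were called without the 24 h array of line 178119 or the 1 h array of line 28545, and 1 without the 1 h array of line 178119.

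Among the other pathway genes at 6 h of drug, where 12% of all genes were higher and 12.3% lower, the list of sterol synthesis, uptake and sensing had 3 of 18 higher and 3 lower, near those shares. Its higher genes were the LXR target Mylip, whose product degrades lipoprotein receptors (0.63), Ggps1 (0.55) and Lbr (0.31), relative to the median of all tested genes. The fatty acid and glycerolipid list had 0 of 18 higher and 4 lower, among them the elongase Elovl6 (-0.75), the citrate carrier Slc25a1 (-0.62) and the acyl-CoA synthetase Acsl5 (-0.58). The oxidation list had Cpt1a (0.79) and Cpt2 (0.34) higher, 2 of 10, and 0 lower.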

How the data were processed

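RNA was hybridised to 32 Agilent arrays, each with 62976 spots, on 4 slides, and the authors deposited scanner intensities for red and green with background and flags, per the file headers (Feature Extraction 10.1.1.1; the submitters' processing notes name version 9.1 and limma). The deposited value table holds log10 ratios of red over green that equal the scanner's own and were used as an alternative, as log2.

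Mean intensities were background-corrected (limma 3.58.1, R 4.3.3, normexp, offset 50) and loess-normalised within each array, with control and outlier spots given weight 0 and then left out. Spots were averaged per probe, technical repeats per sample, and the probe brightest on average was taken per gene. Of 55681 probes, 27235 had a symbol in the RefSeq table (GRCm38.p6); 2837 symbols were updated. Testing required a signal well above background, in the red or the green channel, for a share of 0.5 or more of a fit's arrays. Genes with a missing value were dropped as well (188 from the pool fit, 16 from the splenic fit and 1713 from the drug fit).

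Groups were compared with lmFit and eBayes, adjusted with Benjamini-Hochberg over all genes at 0.05. Pool arrays were fitted as 16 samples with 4 group means (12 residual degrees of freedom), splenic samples with stimulation and genotype (3), drug arrays as ratios against 0 with 1 mean per time (4) and lymphoma arrays with 1 mean per line (3, technical). Fits by anti-IgM time, with missing values and over the 4 drug times were added after the data had been seen. Drug replicates pair across times because both come from the same 2 cell lines. The scripts were tested on simulated data.

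The members, role groups and other lists were chosen with earlier results of these data known. All 29 members are named; from the other lists, at most 3 genes per direction are named, taken from those that passed with the greatest change. Alternatives tried were Agilent's processed signals, median centring, the deposited ratios, other filters on dim probes, the mean of probes, slide and line as a block, array weights, each sample or repeat left out, and the line fit without line 1039. For arrays their number limits the precision. Probe positions are those of the files, on mm9; the part of the transcript under each probe was not looked up.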

Additional observations from a re-analysis of the deposited data

Results flagged for a closer look

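Within a group of 4 to 10 samples, chance sets 1 sample this far apart in about 1 of 20 groups. All 29 members were screened in the 9 lines, and Srebf1 alone met that criterion, in line 1036, where its log2 ratio was 1.01. With so many genes screened, 1 such case may be chance.

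Differences between anti-IgM times were tested in a fit added after the data had been seen. From 3 h to 6 h the log2 rise was 1.12 for Acat2, 3.07 for Hmgcs1, 2.40 for Mvk, 1.74 for Pmvk, 4.29 for Idi1 and 1.96 for Fdps among the early enzymes. Among the later enzymes it was 1.60 for Fdft1, 3.35 for Sqle, 2.44 for Lss, 2.93 for Cyp51, 2.73 for Sc4mol, 1.29 for Nsdhl, 2.06 for Hsd17b7 and 1.80 for Dhcr7. Among the others it was 2.02 for Insig1, 1.26 for Srebf2, 1.16 for Stard4, 1.37 for Acly, 1.37 for Fasn and 1.49 for Scd2.

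From 6 h to 24 h the log2 difference was -2.09 for Hmgcs1, -1.75 for Idi1 and -1.25 for Fdps. It was -1.14 for Fdft1, -1.63 for Sqle, -1.46 for Lss, -1.44 for Cyp51, -1.27 for Sc4mol, -1.64 for Hsd17b7 and -1.005 for Sc5d. It was -1.48 for Insig1 and -1.72 for Fasn.

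The response to PCI-32765 differed between the 4 times for 6 members by limma's F test, with an adjusted p of 0.0174 for Acat2, 0.0292 for Lss, 0.0349 for Dhcr7, 0.00733 for Fasn, 0.0223 for Abca1 and 0.00656 for Abcg1. Between 1 h and 24 h the difference was -0.67 for Acat2 and 0.93 for Abca1.

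At 6 h of anti-IgM the change from untreated cells had opposite signs in ATMWT and ATMKO cells for 2 genes, -0.076 and 0.184 for Ebp and -0.076 and 0.19 for Scap. These differences between genotypes were not tested.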

How the results depend on the processing

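Over all alternatives, 3943 values of single members were recomputed; 3520 kept direction and side of the threshold, 400 kept direction and lost the call, and 23 reversed, all of the drug arrays under median centring without loess. For the mean of the 4 times these were Fasn 0.345, Fdft1 0.453, Fdps 0.508, Hsd17b7 0.143, Idi1 0.340, Lss 0.112, Mvd 0.238, Pmvk 0.544, Sc5d 0.354, Scap 0.458 and Srebf2 0.343. At 3 h they were Cyp51 0.374, Fasn 0.217, Idi1 0.429, Lss 0.207 and Sc5d 0.369, at 6 h Acly 0.134, Fdft1 0.045, Sc5d 0.023 and Scap 0.048, and at 24 h Acat2 0.054, Fdps 0.200 and Pmvk 0.171. The median of all tested genes moved above 0 with them (0.425 for the mean), and the cause was not tested. The drug counts under median centring were 22 for the mean, 22 at 1 h, 16 at 3 h, 4 at 6 h and 0 between 1 h and 24 h.

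With Agilent's processed signals the count of members called was 2 for lymphoma against GC B cells (4 in the report), 1 for GC against untreated cells, 4 at 3 h of drug, 1 between 1 h and 24 h and 4 at 24 h of anti-IgM. With median centring it was 1 and 0 for the first 2 of these, 12 for lymphoma against anti-IgM cells and 2 at 24 h of anti-IgM. With the deposited ratios it was 2 for lymphoma against GC, 2 for GC against anti-IgM cells, 3 and 9 at 3 h and 6 h of drug and 1 between 1 h and 24 h. Detection on all arrays leaves 5 of 29 members in the pool fits, and counts were then 2, 3 and 3 for lymphoma against GC, untreated and anti-IgM cells, 0 and 0 for GC, 1, 3 and 0 at 3, 6 and 24 h of anti-IgM, 4 and 0 between those times, 3 for lymphoma against 6 h and 1 among lines. Within slides 2, 3 and 4, with few arrays each, lymphoma against anti-IgM cells gave 8, 3 and 4; against untreated cells slides 2 and 3 gave 15 and 1; slide 2 gave 1 for lymphoma against GC and 0 for both GC comparisons. The slide as a block gave 0 for both GC comparisons and 29 among lines, and 16 among lines passed without line 1039. Array weights gave 11, 16 and 10 for the 3 comparisons with GC cells. The first repeat alone gave 0 for lymphoma against GC, 1 for GC against untreated cells, and 1 and 3 at 3 h and 24 h of anti-IgM. Without GC array 1, GC gave 4 against untreated and 2 against anti-IgM cells; without array 2, lymphoma against GC gave 2 and GC against untreated 1; without array 3 these were 2 and 1, and 0 against anti-IgM cells. Without the first arrays of GC and line 1039, GC against anti-IgM cells gave 2. The mean of all probes gave 4 at 24 h of anti-IgM. Pooled anti-IgM against untreated cells gave 23 with 6 h alone and 1 in the fit of 16 samples.

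With 1 sample or array left out at a time the counts ran from 2 to 10 (lymphoma against GC), 18 to 25 (untreated) and 19 to 21 (anti-IgM), 1 to 11 and 1 to 2 (GC against untreated and anti-IgM cells), 0 to 0 (pooled anti-IgM), 0 to 3, 14 to 19 and 2 to 7 (anti-IgM 3, 6 and 24 h), 16 to 21 and 3 to 13 (between those times) and 4 to 13 (lymphoma against 6 h). For the drug they ran from 12 to 16 (mean), 0 to 10, 7 to 16 and 2 to 7 (3, 6 and 24 h) and 0 to 2 (1 h to 24 h). With the line as a replicate block the drug counts were 14, 0, 7, 15, 7 and 2, the same as without it, so the pairing changed no count. For the fits with 1 sample or array left out the share of all genes called was not counted. Whether a moved count is particular to the members is therefore not known. Low signal limits the exporters in the lines.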
